A study of Mus musculus with 66 samples.

Results

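The miR-23, miR-24 and miR-27 miRNAs are made from a pair of short gene clusters, and 9 of their mature forms were followed in mouse plasma: mmu-miR-23a-3p, mmu-miR-23b-3p, mmu-miR-24-3p, mmu-miR-27a-3p and mmu-miR-27b-3p, and the rarer opposite arms mmu-miR-24-1-5p, mmu-miR-24-2-5p, mmu-miR-27a-5p and mmu-miR-27b-5p. They were chosen by name from the 1826 miRNA entries of the C3H table. All 9 were present and all 9 passed the filter on low counts, which 1452 entries passed. Circulating miRNAs were sequenced from plasma of 13 male C3H mice, 8 with hepatocellular carcinoma (HCC) and 5 without (non-HCC). The labels give every one of these mice as more than a year after radiation and blood was drawn at necropsy. The paper describes the HCC group as radiation-induced and, in larger number, spontaneous tumors, which the labels do not separate. This conflicts with the labels' time after radiation, so which mice were irradiated is not known here. The paper reports some plasma miRNAs as higher with radiation-induced than with spontaneous tumors. Each value is a count of unique molecular identifiers (UMIs), so copies of 1 captured molecule made during amplification were counted once.

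Each mouse gave between 9513136 and 14247488 miRNA UMIs. No entry lay between 1 and 9, so a value of 0 means fewer than 10 UMIs. Levels are given on 2 scales, as log2 of UMIs plus 1: the spike-in scale divides by the mean of the synthetic miRNAs UniSP2 and UniSP4 added before RNA isolation, and the TMM scale by a factor computed from the miRNAs themselves. Over all miRNAs tested, the median HCC over non-HCC log2 fold change was 0.78 on the spike-in scale and 0.17 on the TMM scale, so each fold change is read against that shift. HCC libraries 1 and 6, 2 and 5, and 3 and 7 were the most alike pairs by a chi-square of their counts per degree of freedom (54.1, 93.2 and 123, with the next pair at 182). By the SD of their log2 ratios over miRNAs, pairs 2 and 5 and 3 and 7 were again the most alike, while 1 and 6 (0.57) came after 5 non-HCC pairs. They differed by more than sampling noise and were counted as separate mice. Fold changes and ratios were also computed with each pair summed, and the summed value is given where it bears on a result. The correlations were not recomputed with the pairs summed. The p-values rest on the spread between these mice and take each library as independent, which the alike pairs leave uncertain.

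A miRNA is cut from a hairpin in a longer transcript, and the hairpin's 5p and 3p arms can each be kept as a mature strand. The seed, bases 2 to 8, pairs with target mRNAs, so miRNAs with the same seed are grouped in a family. Members of these clusters are known for roles in the endothelium, in blood cell formation, in TGF-beta signalling and, for miR-27, in lipid metabolism. In plasma, miR-23a-3p is widely used as a partner of the red cell miRNA miR-451a in an index of hemolysis.

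The a cluster lies on the plus strand of chromosome 8, at chr8:84208518-84208921 of GRCm38, and holds Mir23a, Mir27a and Mir24-2 within 404 bases. Mir23a and Mir27a overlap no other annotated gene, and the end of Mir24-2 overlaps an exon of the lincRNA Gm26532. The b cluster lies on the plus strand of chromosome 13, at chr13:63300484-63301275, and holds Mir23b, Mir27b and Mir24-1 within 792 bases. Its hairpins lie in the protein-coding gene 2010111I01Rik on the same strand, Mir23b in an intron and Mir27b and Mir24-1 overlapping an annotated exon, and in introns of Fancc on the opposite strand. Both clusters make the same miR-24-3p, so its UMIs cannot be assigned to a cluster, while each of the other 8 names belongs to 1 cluster.

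The mature sequences from RefSeq (GRCm38.p6) are shown because their likeness decides which members share a seed and which could be confused in counting. They are written 5′ to 3′, with the seed in capitals.
mmu-miR-23a-3p: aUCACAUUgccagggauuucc
mmu-miR-24-3p: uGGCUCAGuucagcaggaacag
mmu-miR-27a-3p: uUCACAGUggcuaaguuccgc
mmu-miR-27b-3p: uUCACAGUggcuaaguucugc
mmu-miR-27a-5p: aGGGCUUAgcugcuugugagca
mmu-miR-27b-5p: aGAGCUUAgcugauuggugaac
mmu-miR-24-2-5p: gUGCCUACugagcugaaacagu
mmu-miR-24-1-5p: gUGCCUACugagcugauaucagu

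The seed of miR-27a-3p was the same as that of miR-27b-3p, and the 2 strands differed at 1 of 21 bases, C19U, counted from the 5′ end with the miR-27a-3p base first. Reads that end before or are misread at that base could be counted under either name, so how the UMIs divide between miR-27a-3p and miR-27b-3p is uncertain, and the same caution holds for the related pair miR-23a-3p and miR-23b-3p. The opposite arms were easier to tell apart: miR-27a-5p and miR-27b-5p differed at 8 of 22 bases, among them G3A inside the seed. The miR-24 opposite arms miR-24-2-5p and miR-24-1-5p had the same seed and the same first 16 bases.

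The summed share of the 9 miRNAs among the plasma miRNA UMIs had a higher median in the HCC mice, with overlapping ranges. Their summed share ran from 1.17% to 3.90% over the 8 HCC mice, with a median of 1.61%, and from 1.01% to 1.30% over the 5 non-HCC mice, with a median of 1.04%. Nearly all of it came from the 3p arms. By mean share, miR-23a-3p ranked 20 among all miRNAs in the HCC group and 29 in the non-HCC group, miR-24-3p ranked 24 and 34, miR-27b-3p ranked 38 and 60, miR-27a-3p ranked 53 and 70, and miR-23b-3p ranked 65 and 74.

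The order of the levels was close to the same in every mouse. UMIs count captured molecules, so they were compared between miRNAs with no correction for length. How efficiently each miRNA was captured was not measured, so the order and its steps are those of UMI counts. From the highest down, miR-24-3p exceeded miR-27b-3p in 13 of 13 mice, by 1.18 ± 0.45 on the log2 scale (SD, n = 13), and miR-27b-3p exceeded miR-27a-3p in 13 of 13 mice, by 0.70 ± 0.38. The other neighbours were closer: miR-23a-3p exceeded miR-24-3p in 11 of 13 mice, by 0.25 ± 0.23, and miR-27a-3p exceeded miR-23b-3p in 11 of 13 mice, by 0.40 ± 0.42, which was within its spread. A wide step then separated the 3p arms from the opposite arms, since miR-23b-3p was 136-fold to 708-fold above miR-27a-5p. Among the 4 opposite arms, with 0 to 74 UMIs per mouse, no neighbour differed by more than its spread over the mice.

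Within the clusters, the mean makeup was close between the groups except for miR-27b-3p and miR-23b-3p. Of the UMIs of the 9 miRNAs, miR-23a-3p held 37.5% ± 3.9 in HCC (SD, n = 8) and 38.5% ± 2.2 in non-HCC mice (SD, n = 5), and miR-24-3p held 32.1% ± 4.0 and 31.9% ± 3.3. The share of miR-27b-3p was 15.8% ± 4.3 in HCC and 12.5% ± 2.3 in non-HCC mice, and that of miR-23b-3p was 5.84% ± 1.32 and 8.20% ± 1.34. These shares are a description without a test, and the tested ratios between members follow further on.

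All 9 fold changes were above 0 on the spike-in scale, yet none of the 9 passed the test. edgeR's quasi-likelihood test with Benjamini-Hochberg adjustment over 1452 miRNAs called 7.51% of all miRNAs higher in HCC and 0% lower, against 0 of the 9. At an unadjusted p under 0.05 it found 4 of the 9, miR-23a-3p, miR-24-3p, miR-27a-3p and miR-27b-3p, where it found 19.5% of all miRNAs. With DESeq2 and the same spike-in scale, 2 of the 9 were higher, miR-24-3p (adjusted p = 0.0465) and miR-27b-3p (adjusted p = 0.0253), against 12.3% of all miRNAs higher and 0.138% lower. limma called 0 of the 9, against 3.03% of all miRNAs. The median log2 fold change of the 9 was 1.02, beside 0.78 for all miRNAs tested. Relative to the median of all miRNAs, miR-24-1-5p, miR-27a-5p and miR-24-2-5p were lower, at −0.36, −0.25 and −0.02, and the other members were above it. In plasma, a change in the number of cells that release a miRNA and a change in release per cell cannot be told apart.

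In edgeR on the TMM scale, miR-27b-3p was the member that passed. edgeR called 1 of the 9 higher and 0 lower, against 7.37% of all miRNAs higher and 2.2% lower. The median log2 fold change of the 9 on that scale was 0.29, beside 0.17 for all miRNAs. DESeq2 with its own size factors, a scale other than TMM, called miR-24-3p (adjusted p = 0.0129) and miR-27b-3p (adjusted p = 0.000585). It called 10.7% of all miRNAs higher and 4.2% lower. With 9 members, counts of 0 to 2 stay close to these background shares, and nothing is read from them about the clusters.

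**Figure D1:**
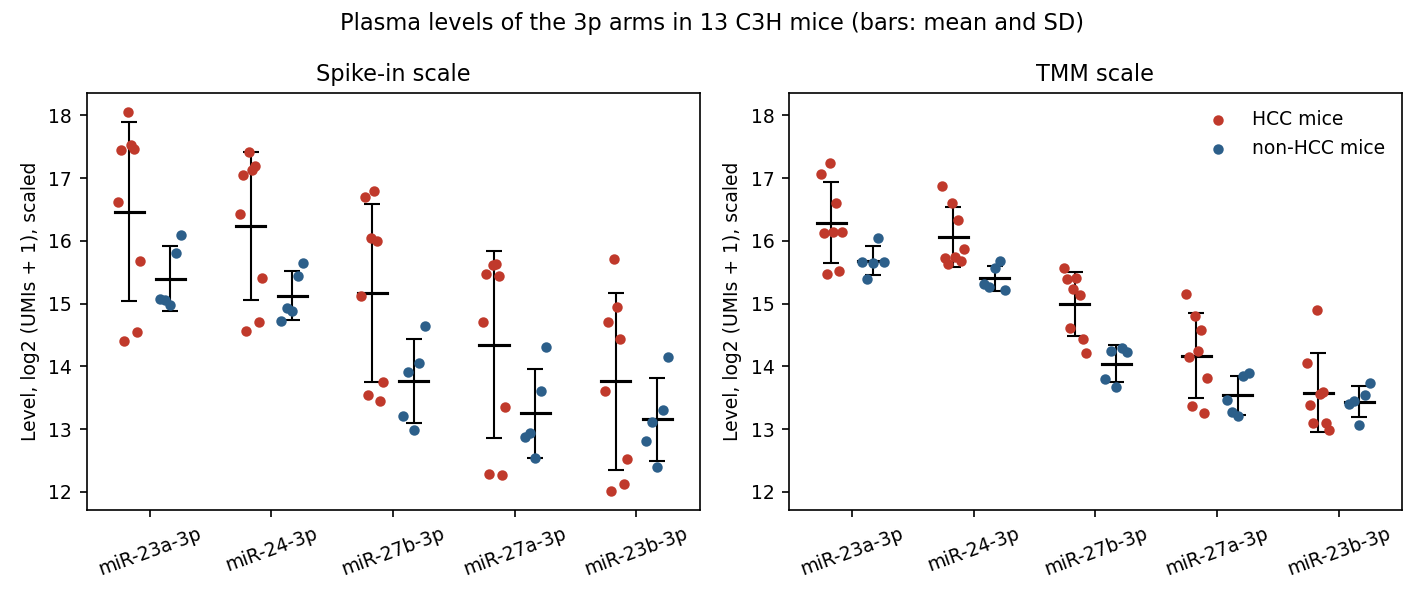
Level of each of the 5 3p arms, as log2 of UMIs plus 1 after scaling, in 8 HCC mice (red) and 5 non-HCC mice (blue), on the spike-in scale (left) and the TMM scale (right), with points for mice and bars for the mean and SD. The HCC mice spread widely on the spike-in scale, and on the TMM scale 7 of 8 HCC mice lie above every non-HCC mouse for miR-27b-3p and for miR-24-3p.

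miR-27b-3p, made from the b cluster, had the largest fold change of the 9 on both scales. Its TMM level in the HCC mice ran from 14.21 through a median of 15.19 to 15.57, and in the non-HCC mice it was 13.79, 14.25, 13.67, 14.30 and 14.23. Of the 8 HCC mice, 7 lay above every non-HCC mouse and the remaining one, HCC mouse 8, lay among them, so the groups overlapped. The log2 fold change was 1.00 (SE 0.28, edgeR adjusted p = 0.0343) on the TMM scale, which is 0.83 above the median of all miRNAs. It was 1.81 (SE 0.69, edgeR adjusted p = 0.120) on the spike-in scale, which is 1.03 above that scale's median. With the alike HCC libraries summed, the TMM value was 1.02 with an edgeR adjusted p of 0.0717, so the call was lost, where 6.5% of all 1401 miRNAs tested were called higher. It was also lost when HCC mouse 1, 2 or 5 or any of the 5 non-HCC mice was left out, and kept without each of the other 5 HCC mice, with edgeR adjusted p from 0.0144 to 0.0956 over the 13 fits.

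miR-24-3p, the strand that both clusters make, came next by adjusted p. Its TMM level in the HCC mice ran from 15.63 through a median of 15.80 to 16.88, and in the non-HCC mice it was 15.32, 15.26, 15.57, 15.67 and 15.22. HCC mouse 3, at 15.63, was the only one of the 8 below the highest non-HCC mouse. The log2 fold change was 0.71 (SE 0.28, edgeR adjusted p = 0.126) on the TMM scale and 1.42 (SE 0.61, edgeR adjusted p = 0.188) on the spike-in scale. In edgeR it passed the threshold on neither scale, and on the TMM scale in 0 of 13 fits that left out a mouse.

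miR-23a-3p and miR-27a-3p, both from the a cluster, had fold changes close to each other. The TMM level of miR-23a-3p in the HCC mice ran from 15.47 through a median of 16.14 to 17.23, and in the non-HCC mice it was 15.66, 15.40, 15.65, 16.04 and 15.67. That of miR-27a-3p ran from 13.26 through 14.20 to 15.16 in the HCC mice, and was 13.47, 13.27, 13.21, 13.85 and 13.89 in the non-HCC mice. HCC mice 1, 4 and 6 were the highest for both miRNAs and HCC mice 3 and 7 the lowest, inside the non-HCC range. The log2 fold change of miR-23a-3p was 0.72 (SE 0.32) on the TMM scale and 1.48 (SE 0.66) on the spike-in scale, with edgeR adjusted p of 0.202 and 0.207. That of miR-27a-3p was 0.74 (SE 0.33) and 1.46 (SE 0.68), with edgeR adjusted p of 0.197 and 0.235.

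miR-23b-3p, from the b cluster, had the smallest fold change of the 3p arms. Its TMM level in the HCC mice ran from 12.98 through a median of 13.47 to 14.90, and in the non-HCC mice it was 13.40, 13.45, 13.07, 13.55 and 13.73. HCC mice 1 and 4 lay above every non-HCC mouse and HCC mouse 8 below them all. The log2 fold change was 0.27 (SE 0.33, edgeR adjusted p = 0.795) on the TMM scale and 1.02 (SE 0.67, edgeR adjusted p = 0.459) on the spike-in scale. The members of the b cluster thus had the largest and the smallest fold change among the 5 main strands.

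On the spike-in scale the HCC mice fell far apart. For miR-23a-3p the level in the HCC mice ran from 14.40 to 18.05 with a median of 17.03, while the non-HCC mice gave 15.07, 15.06, 14.97, 15.81 and 16.09. HCC mice 3 and 7 lay below every non-HCC mouse for miR-23a-3p, miR-23b-3p, miR-24-3p and miR-27a-3p, and 4 or 5 HCC mice lay above every non-HCC mouse for each of the 5 strands. UniSP2 itself ran from 165794 to 938898 UMIs over the HCC mice and from 364466 to 731761 over the non-HCC mice, and its part in this spread was not tested. On neither scale did any of the 9 separate all HCC from all non-HCC mice, which 1.52% of all miRNAs did upward on the spike-in scale and 3.72% on the TMM scale.

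**Figure D2:**
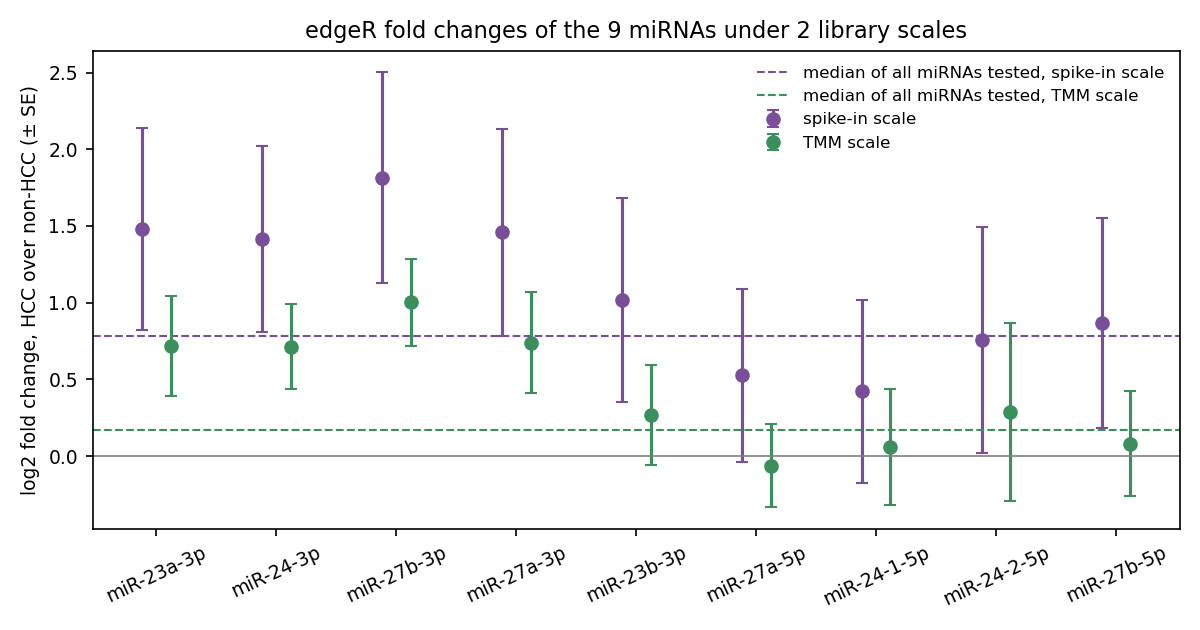
edgeR log2 fold change of each of the 9 miRNAs, HCC over non-HCC, with bars for the SE, on the spike-in scale (purple) and the TMM scale (green), with dashed lines at the median of all miRNAs tested (0.78 and 0.17). The 5 3p arms lie above the dashed line of their scale, miR-27b-3p highest, and the 4 opposite arms lie around it.

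The opposite arms were near the floor of the table and none passed the test. miR-27a-5p gave 25 to 61 UMIs in the HCC mice (median 41.5) and 33, 60, 45, 43 and 43 in the non-HCC mice. miR-27b-5p gave 13 to 52 UMIs (median 23) in the HCC mice and 25, 31, 20, 14 and 27 in the non-HCC mice. The groups overlapped for both. For miR-24-1-5p the HCC mice gave 13 to 66 UMIs and the non-HCC mice 22 to 47, and for miR-24-2-5p they gave 0 to 74 and 21 to 36, with HCC mouse 2 the only mouse listed at 0. Over these 4 arms the log2 fold change was 0.42 to 0.87 on the spike-in scale (edgeR adjusted p 0.593 to 0.828) and −0.06 to 0.29 on the TMM scale (edgeR adjusted p 0.929 to 0.985). Their SE was 0.27 to 0.58 on the TMM scale.

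The ratio of an a copy to its b copy in the same library needs no scale, and asks whether the clusters moved alike. miR-23a-3p was higher relative to miR-23b-3p in HCC than in non-HCC mice, but the difference did not pass after adjustment. The log2 ratio in HCC mice 1 to 8 was 3.00, 2.74, 2.38, 2.34, 2.58, 3.02, 2.43 and 3.16, and in non-HCC mice 1 to 5 it was 2.26, 1.95, 2.58, 2.50 and 1.94. HCC mice 1, 2, 6 and 8 lay above the non-HCC mice, HCC mouse 5 barely exceeded the highest of them, and the other 3 lay among them. The means were 2.71 ± 0.32 (SD, n = 8) and 2.24 ± 0.30 (SD, n = 5), a difference of 0.46 (SE 0.18, exact two-sided permutation p = 0.0295, adjusted p = 0.118 over the 4 ratios compared). With the alike HCC libraries summed it was 0.47 (exact permutation p = 0.0794).

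For miR-27 the ratio leaned the other way. The log2 ratio of miR-27a-3p over miR-27b-3p in HCC mice 1 to 8 was −0.41, −1.23, −1.25, −0.42, −1.17, −0.56, −1.18 and −0.40, and in non-HCC mice 1 to 5 it was −0.33, −0.98, −0.46, −0.45 and −0.33. HCC mice 2, 3, 5 and 7 lay below every non-HCC mouse, while HCC mice 1, 4, 6 and 8 lay within the non-HCC range. Mice 2 and 5, and 3 and 7, are 2 of the pairs of alike libraries. The means were −0.83 ± 0.41 (SD, n = 8) and −0.51 ± 0.27 (SD, n = 5), a difference of −0.32 (SE 0.21, exact two-sided permutation p = 0.113, adjusted p = 0.227). With the alike HCC libraries summed the difference was −0.23 (exact permutation p = 0.230).

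The low-count opposite arms gave no ratio that passed. The difference was −0.15 (SE 0.33, exact two-sided permutation p = 0.651, adjusted p = 0.868) for miR-27a-5p over miR-27b-5p. It was −0.17 (SE 0.92, exact two-sided permutation p = 0.929, adjusted p = 0.929) for miR-24-2-5p over miR-24-1-5p, where HCC mouse 2 decides the sign: without it the difference was 0.48.

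**Figure D3:**
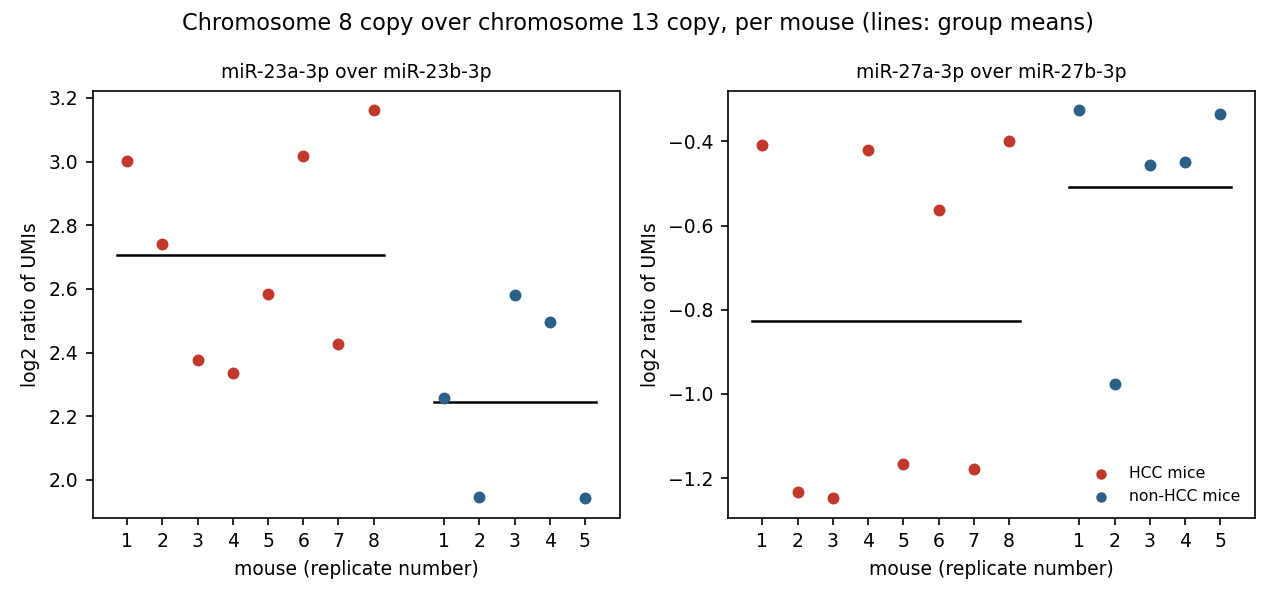
Within-mouse log2 ratio of UMIs of the chromosome 8 copy over the chromosome 13 copy, for miR-23 (left) and miR-27 (right), with a point for each HCC mouse (red) and non-HCC mouse (blue) and a line at each group mean. The miR-23 ratio averages 2.71 in HCC and 2.24 in non-HCC mice, and for miR-27 the HCC mice fall near −0.4 or near −1.2.

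Both arms of a hairpin come from 1 precursor, so their ratio says whether they moved together. miR-27b-3p was 788-fold to 2933-fold above miR-27b-5p in the HCC mice and 514-fold to 1420-fold above it in the non-HCC mice. The log2 ratio in HCC mice 1 to 8 was 11.52, 10.40, 9.95, 9.98, 10.75, 10.56, 10.26 and 9.62, and in non-HCC mice 1 to 5 it was 9.12, 9.45, 9.01, 10.47 and 9.45. All HCC mice lay above non-HCC mice 1, 2, 3 and 5, and non-HCC mouse 4 lay among the HCC mice. The mice with the highest ratio in each group, HCC mouse 1 and non-HCC mouse 4, had 13 and 14 UMIs of miR-27b-5p, the fewest of the 13 mice. The difference was 0.88 (SE 0.33, exact two-sided permutation p = 0.0233, adjusted p = 0.0699 over the 3 arm ratios). It was 0.77 with the alike HCC libraries summed (exact permutation p = 0.0635, adjusted p = 0.143) and 0.72 without HCC mouse 1. Of the 13 fits that left out a mouse, 2 passed after adjustment, without non-HCC mouse 4 (1.12, exact permutation adjusted p = 0.0182) and without HCC mouse 8 (0.99, exact permutation adjusted p = 0.0379), and the other 11 did not, with adjusted p up to 0.156.

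The other arm ratios differed in the same direction and did not pass. For miR-27a-3p over miR-27a-5p the difference was 0.71 (SE 0.34, exact two-sided permutation p = 0.0575, adjusted p = 0.0862). For miR-24-3p over the summed miR-24-1-5p and miR-24-2-5p it was 0.55 (SE 0.36, exact two-sided permutation p = 0.152, adjusted p = 0.152).

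Co-variation was examined over the 8 HCC mice on the TMM scale, since the 5 non-HCC mice are too few. The members of the a cluster varied together, and with miR-24-3p. Pearson's r was 0.953 for miR-23a-3p with miR-27a-3p (Spearman's rho 0.881, exact permutation p = 0.00117 and 0.00724, adjusted p = 0.00463 and 0.0181 over 10 pairs). For miR-23a-3p with miR-24-3p it was 0.923 (rho 0.976, exact permutation p = 0.000918 and 0.000397, adjusted p = 0.00463 and 0.00397). Without the 2 mice farthest from the median of miR-23a-3p, r was 0.952 and 0.822.

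Within the b cluster the relation was looser. For miR-23b-3p with miR-27b-3p r was 0.628 (rho 0.714, exact permutation p = 0.0829 and 0.0576, adjusted p = 0.104 and 0.0720), and without the 2 farthest mice it was 0.913. The a and b copies gave r = 0.873 for miR-23 (rho 0.762, exact permutation p = 0.00139 and 0.0368, adjusted p = 0.00463 and 0.0655) and r = 0.794 for miR-27 (rho 0.738, exact permutation p = 0.0236 and 0.0458, adjusted p = 0.0337 and 0.0655). Without the 2 farthest mice these were 0.675 and 0.654. miR-27b-3p stood apart from miR-24-3p, with r = 0.525 (rho 0.452, exact permutation p = 0.191 and 0.267, adjusted p = 0.191 and 0.297), and 0.189 without the 2 farthest mice.

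In all, Pearson's r passed after adjustment for 7 of the 10 pairs and Spearman's rho for 4. The 3 pairs that failed by Pearson's r all held miR-27b-3p, and they failed by Spearman's rho too. By rho, miR-27a-3p with miR-27b-3p, and miR-23b-3p with miR-23a-3p and with miR-24-3p, failed as well. The difference between correlations was not tested. Since 3 pairs of HCC libraries were alike, the 8 points may not be 8 distinct profiles, and leaving out HCC mouse 3 or HCC mouse 7 lowered the number of pairs that passed by Pearson's r to 4. On the spike-in scale, where every miRNA shares the scale of its library, all 10 pairs passed.

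**Figure D4:**
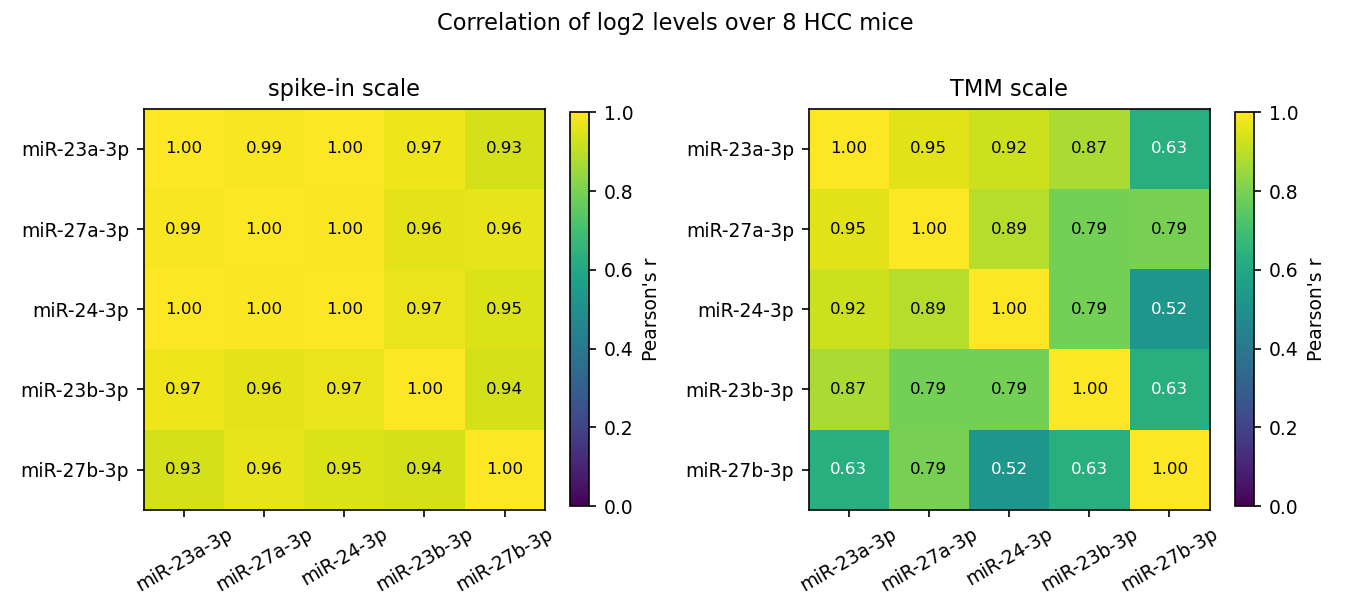
Pearson's r between the log2 levels of the 5 3p arms over 8 HCC mice, on the spike-in scale (left) and the TMM scale (right), with colour and printed value giving r. On the TMM scale the block of miR-23a-3p, miR-27a-3p and miR-24-3p holds the values near 0.9, and the row of miR-27b-3p holds the lowest.

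The miRNAs outside the 9 whose levels followed each 3p arm most closely were listed as a description. Likeness was taken from TMM-scale deviations from the group mean over the 13 mice, among 699 miRNAs with at least 10 UMIs in every mouse. For miR-23a-3p these were miR-10a-5p (r = 0.949), miR-1938 (r = 0.931) and miR-361-5p (r = 0.927), and for miR-24-3p they were miR-361-5p (r = 0.947), miR-664-3p (r = 0.946) and miR-674-3p (r = 0.943). Outside the 9, miR-27a-3p was closest to miR-130a-3p (r = 0.931), miR-182-5p (r = 0.918) and miR-671-5p (r = 0.905). In the same way miR-23b-3p was closest to miR-700-3p (r = 0.911), miR-1839-3p (r = 0.865) and miR-582-3p (r = 0.856). For miR-27b-3p they were miR-22-5p (r = 0.896), miR-34a-5p (r = 0.877) and miR-29c-3p (r = 0.859). Ranks among the 698 other miRNAs counted the members too. Ranked by likeness to miR-23a-3p, its cluster mate miR-27a-3p was number 4 and miR-24-3p number 6. The b copy miR-23b-3p was number 16 (r = 0.824) and miR-27b-3p number 94. By likeness to miR-27a-3p, miR-23a-3p was number 2 (r = 0.925). In the b cluster, miR-27b-3p was number 35 by likeness to miR-23b-3p, and miR-23b-3p was number 74 by likeness to miR-27b-3p (r = 0.644).

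miR-451a, the main red cell miRNA of the index, was lower relative to miR-23a-3p in every HCC mouse. It stood 12.0-fold to 21.1-fold above miR-23a-3p in the non-HCC mice, and 0.383-fold to 10.7-fold in the HCC mice. The log2 ratio in HCC mice 1 to 8 was −1.22, 2.83, 3.19, 1.13, 2.84, −1.39, 3.41 and 1.86, and in non-HCC mice 1 to 5 it was 3.80, 4.38, 4.01, 3.58 and 4.40. The groups did not overlap, and HCC mice 1 and 6 had less miR-451a than miR-23a-3p. The difference was −2.45 (SE 0.89, exact two-sided permutation p = 0.0140), and −2.47 (exact permutation p = 0.00794) with the alike HCC libraries summed. The ratio joins the changes of both miRNAs, and the fold change of neither passed the test. The log2 fold change of miR-451a was −1.40 (edgeR adjusted p = 0.0916) on the TMM scale and −0.64 (edgeR adjusted p = 0.737) on the spike-in scale. Its own level lay below every non-HCC mouse in 8 HCC mice on the TMM scale and in 5 on the spike-in scale. For miR-23a-3p, the denominator, 6 HCC mice lay above every non-HCC mouse on the TMM scale and 5 on the spike-in scale.

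**Figure D5:**
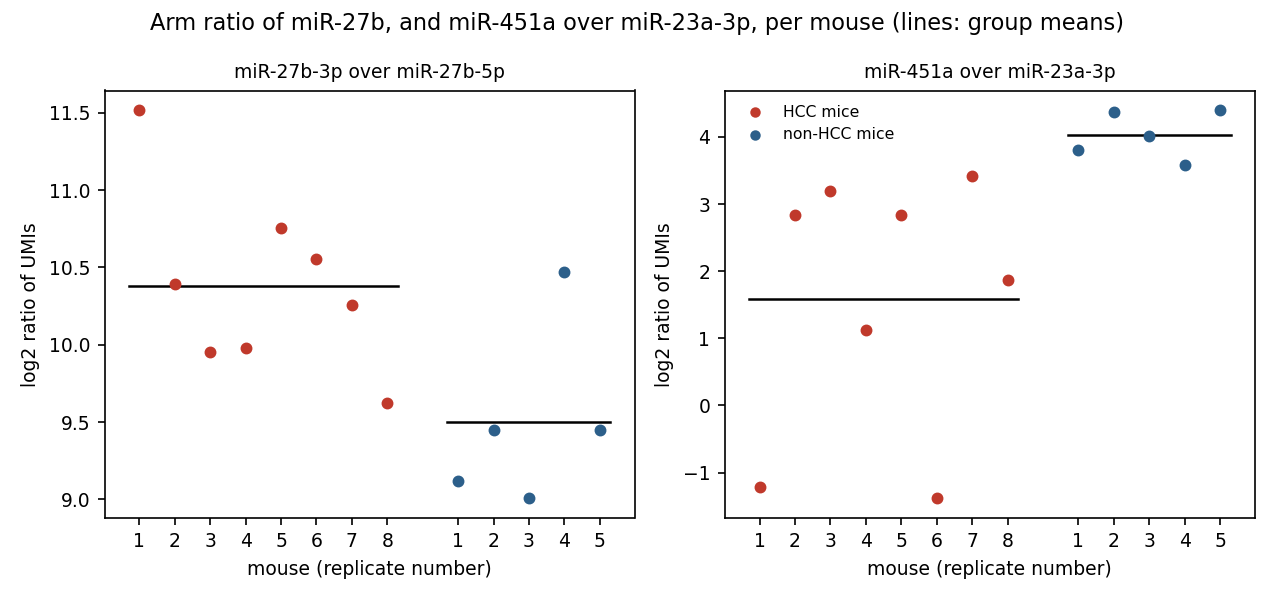
Within-mouse log2 ratio of miR-27b-3p over miR-27b-5p (left) and of miR-451a over miR-23a-3p (right), with a point for each HCC mouse (red) and non-HCC mouse (blue) and a line at each group mean. The miR-451a ratio of all 8 HCC mice lies below that of all 5 non-HCC mice, which start at 3.58.

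Marker miRNAs of cell types that release miRNA into plasma were summed in each mouse, without a test of the sums. Each sum is a share of all miRNA UMIs, so a large share of one leaves less for the others. The range of the groups did not overlap for the liver and the platelet and leukocyte sums, and overlapped for the others. The plasma had been spun to remove platelets and screened for hemolysis. The 6 red cell miRNAs summed to 6.69% to 39.5% of UMIs in the HCC mice and 36.5% to 38.9% in the non-HCC mice. Most of that sum was miR-16-5p, with a mean of 2602840 UMIs, beside 543497 for miR-451a. The share of miR-451a alone did not overlap, at 0.424% to 4.24% in the HCC mice and 6.33% to 8.07% in the non-HCC mice. The 4 liver miRNAs, led by miR-122-5p, summed to 3.82% to 51.0% in the HCC mice and 0.650% to 0.898% in the non-HCC mice. All 4 liver miRNAs were higher in HCC on both scales in edgeR, and 0 of the 6 red cell miRNAs passed on either. Over all miRNAs tested, edgeR called 7.51% higher and 0% lower on the spike-in scale, and 7.37% and 2.2% on the TMM scale. The 4 platelet and leukocyte miRNAs summed to 0.995% to 1.66% in HCC and 2.09% to 4.35% in non-HCC mice, and all 4 were lower on the TMM scale and 0 on the spike-in scale. The 4 endothelial and stromal miRNAs summed to 0.548% to 2.88% and 0.878% to 1.83%, and the 5 muscle miRNAs to 0.0383% to 1.47% and 0.0737% to 0.368%, with 0 passing on either scale. No listed marker was at 0 throughout a group. The part of these cell types in the levels of the 9 miRNAs was not tested.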

How the data were processed

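Small RNA libraries from plasma, with UniSP2 and UniSP4 added before isolation, were prepared with molecular barcodes. The authors aligned the reads to GRCm38 and deposited UMI counts per miRNA, unnormalized; the labels' processing notes name FastQC and Bowtie2, and strand handling is not given in the sources used here. The 8 HCC and 5 non-HCC C3H mice were taken from the labels. A further 53 columns of F2 mice, whose names match no label, were not analysed here. Miscounting between near-identical miRNAs, unequal capture of different miRNAs and the floor of 10 UMIs could affect the measurements.

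Entries that reached 5 UMIs in 5 or more mice went into edgeR 4.0.16 (R 4.3.3), quasi-likelihood, library scale the mean of UniSP2 and UniSP4, Benjamini-Hochberg threshold 0.05; TMM factors, each spike-in alone, DESeq2 1.42.0, limma 3.58.1 on log2 values, other filters, a replicate block and leaving out each mouse were alternatives. Ratios used UMIs plus 1 and exact permutation over all 1287 splits of the mice (Python 3.11.15, numpy 2.4.6). Summing alike HCC libraries, and leaving out mice on the TMM scale, were added after seeing the data. Scripts were tested on simulated data. The members, the marker lists and the rule for named miRNAs were chosen with earlier results of these data known. That rule named the 9 members, the listed markers by counts and sums, and the 3 miRNAs outside the 9 most like each 3p arm. Coordinates are GRCm38 from GENCODE. Total counts of 9513136 to 14247488 UMIs per mouse leave the opposite arms at 74 UMIs or fewer.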

Additional observations from a re-analysis of the deposited data

Results flagged for a closer look

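In 5 of 52 groups of values, 1 mouse lay far from the others of its group by Dixon's criterion, which chance meets in about 1 in 20. The TMM level of miR-24-2-5p in HCC mouse 2, listed at 0 UMIs, was 0.13, with the next HCC mouse at 4.66. The log2 ratio of miR-24-2-5p over miR-24-1-5p in the same mouse was −4.86, with the next at −0.62. The spike-in level of miR-24-1-5p in non-HCC mouse 5 was 5.98, with the next at 4.68. The TMM level of miR-27b-5p in non-HCC mouse 4 was 3.82, with the next at 4.66. The log2 ratio of miR-27a-3p over miR-27b-3p in non-HCC mouse 2 was −0.98, with the next at −0.46.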

How the results depend on the processing

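Of 378 recomputed differences and fold changes, 356 kept their direction and side of the threshold, and of 34 recomputed counts of calls, 24 stayed within 1.5 times the reported count. Some of these could hardly change. The mean of both spike-ins is nearly all UniSP2, so UniSP2 alone repeated the main fit. Setting entries of 0 to 9 left ratios without such an entry as they were. The miR-27b-3p fits that left out a mouse on the TMM scale were compared with the spike-in fit, which did not pass. Those that lost the TMM call therefore count as kept. The number of miRNAs called over the whole table was 109, and 217 or 181 with DESeq2 (own or spike-in size factors), 44 with limma and 44 to 157 when a mouse was left out; with TMM factors 107 were higher and 32 lower, so the split between directions depends on the scale. The cause was not tested. miR-27b-3p and miR-24-3p passed under the settings named above. The log2 fold change of miR-27a-5p turned to −0.061 with TMM factors and −0.0019 with DESeq2's own size factors. The difference in miR-24-2-5p over miR-24-1-5p turned to 0.095 with 10 UMIs added, 0.24 with the entry of 0 set to 9 and 0.23 with alike libraries summed, and ran from −0.40 to 0.48 when a mouse was left out. That in miR-27a-5p over miR-27b-5p ran from −0.30 to 0.0055, the latter without non-HCC mouse 4. That in miR-27b-3p over miR-27b-5p was 0.89 with 10 UMIs added, where it passed, and ran from 0.72 to 1.12 when a mouse was left out. The number of correlated pairs ran from 4 to 8 when an HCC mouse was left out. Same-numbered mice of the 2 groups did not deviate together (correlation −0.13 to 0.07 over 5 pairs, with 1 of 5 HCC mice closest to its own number), so the numbers are only names. With the replicate number as a block, edgeR called 145 miRNAs, miR-27b-3p among them (1.89, edgeR adjusted p = 0.0185), and miR-451a over miR-23a-3p differed by −2.28 (exact permutation p = 0.0625, the smallest that 5 pairs allow). Low counts limit every statement on the opposite arms.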

Other observations

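The hairpins Mir3074-2 and Mir3074-1 lie on the strand opposite to Mir24-2 and Mir24-1, and miR-3074-5p, printed with its seed in capitals, is complementary to bases 1 to 20 of miR-24-3p.
mmu-miR-3074-5p: gUUCCUGCugaacugagccagu
It gave 2001 to 7101 UMIs in the HCC mice, with a median of 3634.5, and 2870, 2484, 2888, 3296 and 2369 UMIs in the non-HCC mice. The groups overlapped, and the log2 fold change was 1.07 (SE 0.57, edgeR adjusted p = 0.318) on the spike-in scale and 0.45 (SE 0.27, edgeR adjusted p = 0.369) on the TMM scale. miR-3074-1-3p, made on chromosome 13 alone, gave 97 to 402 UMIs in the HCC mice and 402, 676, 359, 561 and 644 in the non-HCC mice, of which 359 and 402 fell in the HCC range. Its log2 fold change was −0.13 on the spike-in scale and −0.89 on the TMM scale (edgeR adjusted p = 0.969 and 0.135). miR-3074-2-3p, made on chromosome 8 alone, was listed at 14, 10 and 18 UMIs in HCC mice 4, 6 and 8 and at 0 in the other 10 mice, and was not tested. Whether strand was used in counting is not given in the sources used here.

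Of the other arms of the miR-23 hairpins, miR-23a-5p gave 21 to 129 UMIs and miR-23b-5p 26 to 111 over the 13 mice, and neither passed on either scale. miR-128-3p, which carries the miR-27 seed shifted by 1 base, had a log2 fold change of −0.08 (edgeR adjusted p = 0.972) on the spike-in scale and −0.60 (edgeR adjusted p = 0.197) on the TMM scale, where that of miR-27b-3p was 1.00. The difference between the 2 was not tested.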
